A study of Mus musculus with 69 samples.

Results

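A set of 7 genes for potassium channels and a chloride channel subunit of kidney tubule cells was followed in the kidneys of NZB/W F1 mice: Kcnj1, Kcnj10, Kcnj15, Kcnj16, Kcnk5, Kcnma1 and Bsnd. They were taken by symbol from the deposited count tables, and all 7 were found among the 24523 symbols with counts. NZB/W F1 is a hybrid strain that develops lupus nephritis spontaneously, and no group of another strain is used here. Whole perfused kidneys were sequenced from 30 young mice aged 12 weeks, from 27 nephritic mice aged 30 to 45 weeks with heavy proteinuria, and from 8 mice in remission aged 36 to 50 weeks. The remission mice had been given 50 mg/kg cyclophosphamide with 6 doses each of 200 µg CTLA4Ig and 250 µg anti-CD40L over 2 weeks, and were harvested after 8 weeks if proteinuria stayed low. Young mice numbered 7, 4, 4, 7, 4 and 4 at Zeitgeber time (ZT) 0, 4, 8, 12, 16 and 20, where ZT0 is lights on and ZT12 lights off. Nephritic mice numbered 7, 4, 4, 6, 3 and 3 at these times, and remission mice 4 at ZT0 and 4 at ZT12. Age and disease cannot be told apart in the comparison of nephritic with young mice, since the nephritic mice were older.

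Potassium is filtered at the glomerulus, recovered in the proximal tubule and thick ascending limb, and secreted again in the distal nephron, and this secretion is known to follow the time of day. Inwardly rectifying channels of the Kcnj family do different work on the urine and blood sides of the tubule cell. Kcnj1 (ROMK) opens to the urine in the thick ascending limb, where it returns potassium for Na-K-2Cl cotransport, and in the collecting duct, where it secretes potassium. Kcnj10 (Kir4.1) and Kcnj16 (Kir5.1) form the main potassium channel on the blood side of the distal convoluted tubule. Kcnj15 (Kir4.2) and Kcnk5 (TASK2) belong to the blood side of the proximal tubule, where potassium exit accompanies bicarbonate reabsorption. Kcnma1 is the pore subunit of the BK channel, which secretes potassium when flow rises. Bsnd encodes barttin, a subunit that brings chloride channels to the membrane of the thick ascending limb and distal nephron.

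Values are CPM, read counts scaled to the size of each library with TMM factors, and changes are log2 ratios from edgeR's quasi-likelihood test with its standard error (SE). A gene is called where the Benjamini-Hochberg adjusted p over all genes of the fit was at most 0.05. Total counts per mouse ranged from 25257530 to 35744843 in young, from 26596500 to 48075977 in nephritic and from 13311278 to 21849912 in remission mice. The sample titles fall into series: 6 young and 5 nephritic mice of ZT0 and ZT12 form set 1, 46 young and nephritic mice form set 2, and the remission mice form set 3 with repeat libraries of 4 earlier mice. Set was a covariate in comparisons of young with nephritic mice, and set 3 cannot be told apart from remission except through the repeats. One library went against its label. The mouse titled s9 is labelled remission ZT12, but its clock gene Arntl was at 27.1 CPM, against 3.19 to 4.90 CPM in the other 3 remission mice of ZT12 and 23.1 to 28.8 CPM in the 4 of ZT0. The repeat library of nephritic ZT12 mouse RX11RU lay nearest another mouse, RX11LU (r = 0.994 across genes, against 0.969 with its own original), while the other 3 repeats lay nearest their originals. Genes of the adrenal gland, which sits beside the kidney, summed to more than 20 CPM in 9 libraries, 8 of them young, and reached 1310 CPM. Kidney markers were present throughout, with proximal tubule genes summing to at least 1260 CPM and thick ascending limb genes to at least 1340 CPM in every mouse.

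The genes lie at chr9:32372493-32399197 (Kcnj1), chr1:172341210-172374085 (Kcnj10), chr16:95257558-95300260 (Kcnj15), chr11:110968033-111027968 (Kcnj16), chr14:20140057-20181809 (Kcnk5), chr14:23289431-24014491 (Kcnma1) and chr4:106483456-106492283 (Bsnd) of GRCm38, with Kcnk5, Kcnma1 and Bsnd on the minus strand. Exons of Kcnj15 share 333 bases with the antisense gene Gm49643, and those of Kcnma1 share 1016 bases with 4930519K11Rik on the opposite strand. Since strand was not stated for the counting, reads of these stretches cannot be assigned to one gene. RefSeq promoter windows of GRCm38.p6, from 250 bases before to 50 bases after a start, were found for 6 of the 7 genes (9 windows), and for Bsnd none was found. Both strands were searched for the E-box CACGTG, bound by the clock factors CLOCK and BMAL1, the D-box TTATGTAA, the ROR element core AGGTCA, the glucocorticoid response motif AGAACA and the HNF1 site. No matches overlapped in the windows of these genes. The stretches shown are those of Kcnk5, Kcnj1 and Kcnj15, with motif matches in capitals. Among the members, Kcnk5 had the widest daily range in young mice. Kcnj1 had the largest change in remission against nephritic mice, and Kcnj15 in nephritic against young mice over the day. For Kcnk5, 30 bases around the only E-box in the 9 windows are given (chr14:20181739-20181768, minus strand, with the motif 27 bases after the start), and E-boxes are held by 7.15% of all 32817 windows. For Kcnj1, the 250 bases before an internal start (chr9:32393735-32393984, plus strand) hold AGAACA at 190 and 14 bases before it, and 19% of windows hold this motif. For Kcnj15, the 250 bases before the start (chr16:95257308-95257557, plus strand) hold none of the motifs.
Kcnk5: gcagaggcggcaCACGTGtctgctggtgtg
Kcnj1: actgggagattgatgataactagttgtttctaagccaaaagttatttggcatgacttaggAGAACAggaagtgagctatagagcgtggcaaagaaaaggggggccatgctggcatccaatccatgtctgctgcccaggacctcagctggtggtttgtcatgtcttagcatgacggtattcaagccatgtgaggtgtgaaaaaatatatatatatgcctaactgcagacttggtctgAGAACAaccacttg
Kcnj15: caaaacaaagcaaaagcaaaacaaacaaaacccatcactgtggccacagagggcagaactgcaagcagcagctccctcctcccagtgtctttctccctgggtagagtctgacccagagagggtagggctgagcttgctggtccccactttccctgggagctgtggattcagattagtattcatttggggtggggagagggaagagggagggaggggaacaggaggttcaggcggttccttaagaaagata
Beyond these, Kcnj10 held AGAACA once on the minus strand and the first of 4 Kcnj16 windows held AGGTCA at 2 places, a motif found in 16.3% of windows. A match is a description of the letters and says nothing of binding here.

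Per kilobase of exon, the channels covered a wide range of levels in young kidneys. Kcnj16 was highest at 223 ± 25.1 CPM per kb (SD, n = 30), followed by Kcnj15 at 119 ± 15.8 and Kcnj1 at 103 ± 13.9 CPM per kb, whose spreads overlap. Kcnk5 at 40.5 ± 15.7 and Bsnd at 38.8 ± 6.09 CPM per kb did not differ beyond their spread. Kcnj10 stood lower at 18.6 ± 3.20 CPM per kb, and Kcnma1, the BK channel pore, was lowest by far at 0.247 ± 0.0576 CPM per kb, with 74 to 179 counts per young mouse. In nephritic mice neighbours in this order swapped at 2 places, both within their spread. Kcnj1 stood at 89.9 ± 22.4 and Kcnj15 at 83.0 ± 29.2 CPM per kb (SD, n = 27), and Bsnd at 35.1 ± 7.78 and Kcnk5 at 32.9 ± 13.9 CPM per kb. In remission mice Kcnj1 stood at 145 ± 26.3 and Kcnj15 at 76.7 ± 20.5 CPM per kb (SD, n = 8).

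**Figure D1:**
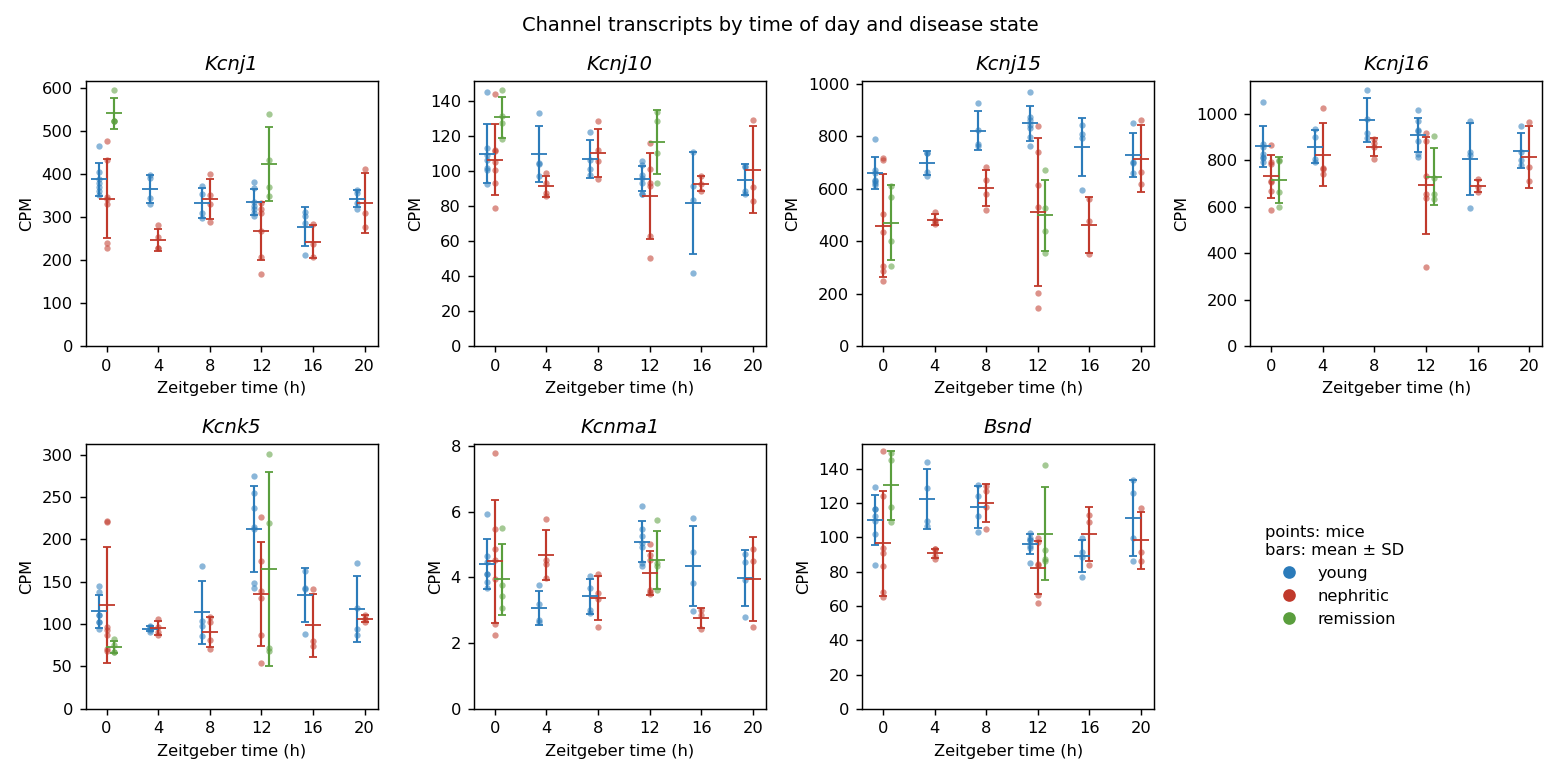
CPM of the 7 genes (y axis, linear from 0) by Zeitgeber time (x axis, hours) in young, nephritic and remission mice; points are mice and bars mean ± SD. Kcnk5 peaks at ZT12 in young mice with a mean of 212 CPM, Kcnj15 lies lower in nephritic than in young mice at ZT4, ZT8 and ZT16 without overlap, and Kcnj1 is highest in remission mice of ZT0. The share of all genes without overlap at these times was not counted.

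The first comparison asked whether channel transcripts differ between nephritic and young kidneys when all 6 time points are pooled. Kcnj1, Kcnj15, Kcnj16, Kcnk5 and Bsnd were lower in nephritic mice, and Kcnj10 and Kcnma1 were not called. Among all 17521 genes tested, 33.9% were called lower and 28.1% higher, so a call is common in this comparison. The median change of the 7 genes was -0.23, against -0.03 over all genes. In bulk tissue, fewer cells of a type and less RNA per cell cannot be told apart.

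Kcnj15, the proximal tubule potassium channel, changed most. Its level in young mice was lowest at 596, median 763 and highest at 969 CPM, and in nephritic mice 144, 518 and 860 CPM. Of the 27 nephritic mice, 17 lay below the lowest young mouse and none above the highest. The log2 change was -0.57 (SE 0.10, adjusted p = 6.66e-06). Pooled over time points, with no term for set, nephritic mice also differed more among themselves. The SD within time points was 0.63 on the log2 scale, 4.5 times the 0.14 of young mice. At ZT4 it went the other way, with an SD of 46.1 CPM in young and 21 CPM in nephritic mice. At ZT12 the 6 nephritic mice ranged from 144 to 840 CPM. The change was -1.35 within set 1 (adjusted p = 0.00380) and -0.39 within set 2 (adjusted p = 0.000158).

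Kcnk5, the other proximal tubule channel, was lower by a smaller and less stable margin. The lowest, median and highest young mice had 86.1, 115 and 275 CPM, and the nephritic mice 53.8, 96.2 and 226 CPM, so that the groups overlapped widely. The log2 change was -0.30 (SE 0.12, adjusted p = 0.0270). It was -1.08 within set 1 (adjusted p = 0.00326) and -0.08 within set 2 (adjusted p = 0.543), and the call was lost when any of 17 single mice was left out.

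Kcnj1 and Kcnj16 were both modestly lower. For Kcnj1 the lowest, median and highest values were 212, 348 and 466 CPM in young and 167, 289 and 477 CPM in nephritic mice, a log2 change of -0.24 (SE 0.07, adjusted p = 0.00213). For Kcnj16 they were 594, 863 and 1100 CPM in young and 339, 763 and 1030 CPM in nephritic mice, a log2 change of -0.23 (SE 0.06, adjusted p = 0.000719). Although the ranges overlap, 22 of 27 nephritic mice for Kcnj1 and 20 of 27 for Kcnj16 lay below the young median. Kcnj10, which pairs with Kcnj16 in the distal convoluted tubule, had a log2 change of -0.06 (SE 0.07, 95% interval -0.20 to 0.08, adjusted p = 0.473).

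Bsnd (barttin) had 76.9, 103 and 144 CPM as the lowest, median and highest young values and 61.9, 93.0 and 150 CPM in nephritic mice. Its log2 change of -0.17 (SE 0.07, adjusted p = 0.0274) was not called when any of 26 single mice was left out, and within set 1 it was 0.0019 (adjusted p = 0.9945). Kcnma1 ranged from 2.65 to 6.18 CPM in young and from 2.25 to 7.79 CPM in nephritic mice, with a log2 change of -0.08 (SE 0.10, 95% interval -0.27 to 0.11, adjusted p = 0.498). Without the 9 libraries with adrenal genes, Kcnj1 (-0.22), Kcnj15 (-0.54) and Kcnj16 (-0.22) were called lower, while Kcnk5 (-0.29, adjusted p = 0.0682) and Bsnd (-0.16, adjusted p = 0.0560) were not.

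**Figure D2:**
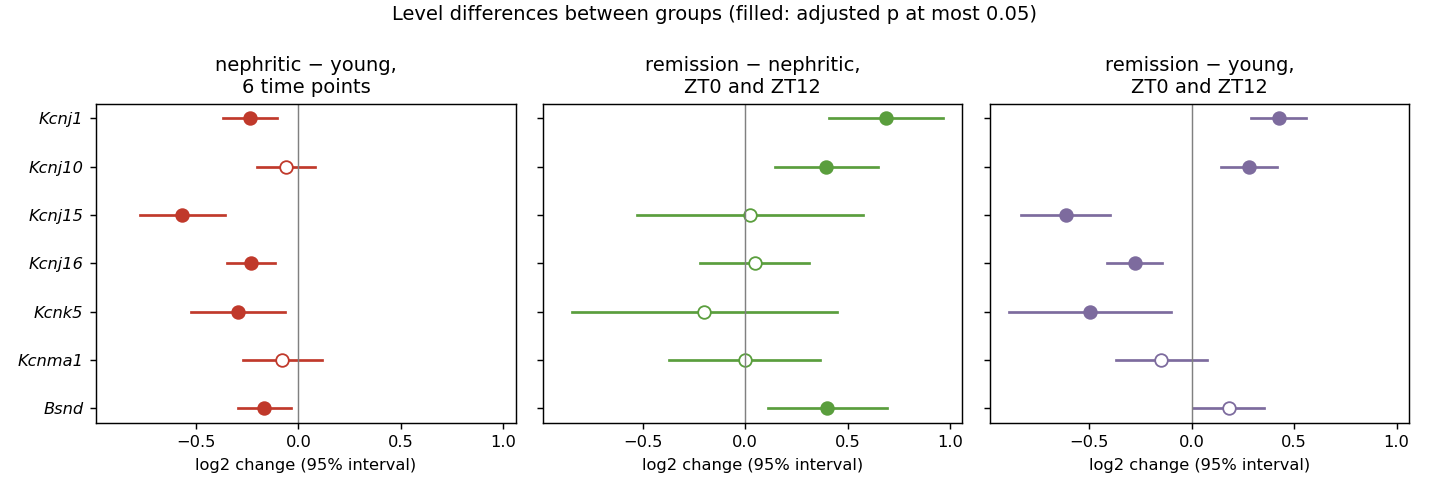
Log2 change with 95% interval (x axis) of each gene (y axis) for nephritic against young, remission against nephritic and remission against young mice; filled points have an adjusted p of at most 0.05. Kcnj15 is the lowest member in nephritic mice at -0.57, and Kcnj1 the highest in remission against nephritic mice at 0.69.

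Markers of the tubule segments moved in the same comparison. All 6 proximal tubule markers and all 4 distal convoluted tubule markers were lower in nephritic mice, while 2 of 6 thick ascending limb markers were lower and 1 higher, and 1 of 6 principal cell markers was higher. Summed proximal tubule markers ranged from 7150 to 13000 CPM (median 10200) in young and from 1260 to 9690 CPM (median 5840) in nephritic mice. All 6 immune markers were higher, and their sum had a median of 55 CPM in young and 322 CPM in nephritic mice. All 4 tubular injury markers were higher as well. The part of these shifts in the channel values was not tested.

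The size of the difference was then taken at each time of day, in a fit with a mean for every group and time point. Its SE rests on a spread pooled over all groups and times, not on the mice of that time alone. For Kcnj15 the SD of nephritic mice was 21 CPM at ZT4 and 283 CPM at ZT12. At ZT4, Kcnj1 in the 4 young mice was 331, 344, 390 and 397 CPM and in the 4 nephritic mice 227, 228, 254 and 281 CPM, with no overlap. The log2 change there was -0.60 (SE 0.17, adjusted p = 0.00682). Bsnd at ZT4 was 107, 110, 129 and 144 CPM in young and 87.7, 89.4, 93.0 and 93.0 CPM in nephritic mice, again apart, with a change of -0.47 (SE 0.17, adjusted p = 0.0325). These were the 2 members called lower at ZT4, where 16.4% of all genes were called lower. The Bsnd call was lost when any of 16 single mice was left out. Kcnj15 at ZT4 did not overlap either, at 650, 664, 735 and 737 CPM in young and 466, 471, 480 and 513 CPM in nephritic mice, but its adjusted p was 0.106 (change -0.57, SE 0.27). The share of all genes without overlap between groups this small was not counted, so a lack of overlap is a description only.

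At ZT12, 4 members were called lower, against 24.2% of all genes. These were Kcnj15 (-0.88, SE 0.22, adjusted p = 0.00106), Kcnk5 (-0.79, SE 0.25, adjusted p = 0.00653), Kcnj16 (-0.43, SE 0.13, adjusted p = 0.00486) and Kcnj1 (-0.34, SE 0.14, adjusted p = 0.0324). The 2 sets differed in size at this time. Within set 1 the Kcnj15 change was -2.32 and the Kcnk5 change -1.76, and these and Kcnj1 and Kcnj16 were called. Within set 2 the changes of Kcnj15 and Kcnk5 were -0.29 and -0.19, and none of the 7 was called. The share of all genes called within each set is not given here. Set 1 held 3 young and 2 nephritic mice at ZT12, and these 2 nephritic mice had the lowest Kcnj15 levels of all, 144 and 204 CPM.

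At ZT0, Kcnj15 was the single member called lower (-0.55, SE 0.21, adjusted p = 0.0307), where 19.4% of genes were called lower, and it was not called without the libraries with adrenal genes. At ZT8, ZT16 and ZT20 no member was called by edgeR or limma voom, where 3.66%, 17.7% and 5.48% of all genes were called. At an unadjusted p of 0.05, 0 members passed at ZT8, 2 at ZT16 and 0 at ZT20. Kcnj15 at ZT16 was 350, 477 and 562 CPM in the 3 nephritic mice and 596, 793, 807 and 841 CPM in the 4 young mice, without overlap (change -0.72, SE 0.30, adjusted p = 0.0874). At ZT8 the nephritic mice also lay below every young mouse for Kcnj15 and Kcnj16. How many of all genes lie apart in this way was not counted.

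Time of day was tested within each group, since the question of the study was how rhythms of kidney genes hold up in nephritis. In young mice, Kcnj1, Kcnj15, Kcnk5, Kcnma1 and Bsnd differed between time points, 5 of 7 members, against 39.8% of the 16521 genes tested. Kcnk5 had the widest daily range. Its mean was 212 ± 50.6 CPM (SD, n = 7) at ZT12 and 94.5 ± 3.18 CPM (SD, n = 4) at ZT4, and the ratio of the highest to the lowest adjusted mean was 2.08 (adjusted p = 0.000880). The 4 young mice of ZT4 lay between 91.1 and 97.7 CPM, below the lowest of the 7 mice of ZT12 at 142 CPM.

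Kcnj1 and Bsnd, both thick ascending limb genes, ran in the opposite phase. Kcnj1 averaged 388 ± 38.6 CPM at ZT0 (SD, n = 7) and 278 ± 45 CPM at ZT16 (SD, n = 4), a range of 1.44-fold (adjusted p = 0.00379). Bsnd averaged 122 ± 17.6 CPM at ZT4 and 89.1 ± 9.42 CPM at ZT16 (SD, n = 4 each), a range of 1.36-fold (adjusted p = 0.0229). Kcnj15 was highest at ZT12 with 848 ± 65.4 CPM and lowest at ZT0 with 660 ± 61.0 CPM (SD, n = 7 each), a range of 1.29-fold (adjusted p = 0.00483). Kcnma1 varied 1.57-fold between ZT4 and ZT12, at 3.08 ± 0.515 CPM (SD, n = 4) and 5.09 ± 0.630 CPM (SD, n = 7), with adjusted p = 0.0339, a call lost when any of 7 single mice was left out (adjusted p 0.0501 to 0.0796). Kcnj10 (adjusted p = 0.179) and Kcnj16 (adjusted p = 0.295) were not called. The libraries with adrenal genes include 3 of the 4 young mice of ZT16, and ZT120, ZT12RL and ZT12LU of ZT12. Without them ZT16LU is alone at ZT16, and mice are lost at the times where these genes were highest or lowest. In that fit Kcnj1 and Kcnj15 were called, and Kcnk5, Kcnma1 and Bsnd were not. The share of all genes called in it is not given here, and whether adrenal tissue or the loss of mice matters was not tested. The Bsnd call was also lost without ZT16 mouse ZT16RU or ZT16LL, with adjusted p up to 0.0714.

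In nephritic mice 1 member, Kcnk5, differed between time points (adjusted p = 0.0457), against 21.6% of the 16872 genes tested, and this call was lost when any of 20 of the 27 mice was left out. The amplitude of a 24 h cosine fitted to log2 CPM was 0.42 (SE 0.09) for Kcnk5 in young and 0.11 (SE 0.15) in nephritic mice. For Bsnd it was 0.19 (SE 0.05) and 0.06 (SE 0.11), for Kcnj15 0.18 (SE 0.03) and 0.07 (SE 0.15), and for Kcnj1 0.16 (SE 0.04) and 0.12 (SE 0.09). For Kcnma1 it was 0.23 (SE 0.08) and 0.18 (SE 0.11), for Kcnj10 0.22 (SE 0.07) and 0.12 (SE 0.08), and for Kcnj16 0.10 (SE 0.04) and 0.12 (SE 0.08). The range between time point means, which follows no fixed curve, was wider in nephritic than in young mice for Kcnj15 (1.55-fold and 1.29-fold), Bsnd (1.57-fold and 1.36-fold) and Kcnma1 (1.73-fold and 1.57-fold). For Kcnj16 it was 1.24-fold and 1.21-fold. It was narrower for Kcnk5 (1.73-fold and 2.08-fold), Kcnj10 (1.35-fold and 1.43-fold) and Kcnj1 (1.42-fold and 1.44-fold). Such a range grows with the spread between mice. Within time points, pooled over the day with no term for set, that spread was larger in nephritic mice for every member. The ratio was 1.12 for Kcnj10 up to 4.5 for Kcnj15. It did not hold at each time. The SD of Kcnj15 was 46.1 CPM in young and 21 CPM in nephritic mice at ZT4, and 65.4 and 283 CPM at ZT12. A wider range is therefore not by itself a stronger daily rhythm. A difference between the time courses of the groups was not shown for any member. In the test of group by time, edgeR called 0 of 7 members and limma voom 0 of 7, against 6.27% of all genes, and 1 member, Kcnma1, had an unadjusted p under 0.05 (adjusted p = 0.129 by edgeR). Within set 2, Kcnma1 (adjusted p = 0.0445) and Bsnd (adjusted p = 0.0337) were called, with the share of all genes called in that fit not given here. Kcnma1 at ZT4 was 2.65, 2.72, 3.19 and 3.76 CPM in young mice and 3.99, 4.42, 4.53 and 5.77 CPM in nephritic mice, while at ZT16 the nephritic mice had 2.42, 2.87 and 3.01 CPM and the young mice 2.98 to 5.82 CPM.

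Lights on against lights off, ZT0 against ZT12, could be compared in the 3 disease states. In young mice 2 members were called, against 14.5% of genes. Kcnk5 was lower at ZT0, with a change of -0.88 (SE 0.17, adjusted p = 0.000495), and Kcnj15 had a change of -0.37 (SE 0.08, adjusted p = 0.00104). In nephritic mice 0 members were called by edgeR or limma voom, with 0 at an unadjusted p under 0.05, against 3.92% of genes. Kcnk5 there spanned 67.8 to 222 CPM at ZT0 and 53.8 to 226 CPM at ZT12, with a change of -0.01 (SE 0.21). The difference between the groups in this contrast was 0.81 for Kcnk5 (SE 0.33, adjusted p = 0.211 by edgeR). No member was called there by edgeR or limma voom, with Kcnk5 under an unadjusted p of 0.05, against 1.25% of genes.

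In remission mice 0% of the 14451 genes tested were called between ZT0 and ZT12, members included, with Kcnj1 and Kcnk5 under an unadjusted p of 0.05. Kcnk5 was 66.5, 67.3, 75.5 and 82.1 CPM in the 4 mice of ZT0. At ZT12 it was 220 and 301 CPM in mice s12 and s10, and 68.8 and 71.4 CPM in s9 and s14. Mice s10 and s12 stood far above every mouse of ZT0, while s9 and s14 lay within the ZT0 range. Kcnj1 at ZT0 was 523, 523, 524 and 595 CPM, and at ZT12 it was 349, 370 and 434 CPM in 3 mice and 541 CPM in s9. Bsnd was 109, 118, 145 and 149 CPM at ZT0, and at ZT12 it was 86.4, 87.6 and 92.5 CPM in 3 mice and 143 CPM in s9. Without s9 the 3 remaining mice of ZT12 lay below the 4 of ZT0 for both genes. In that fit Kcnj1 was called (change 0.51, adjusted p = 0.0424), but Bsnd (0.56, adjusted p = 0.0750) and Kcnk5 (-1.42, adjusted p = 0.120) were not. Leaving out s9 was chosen after seeing the data, where its Arntl level was like that of ZT0. The share of all genes called or without overlap in that fit is not given here, so these values are a description only.

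**Figure D3:**
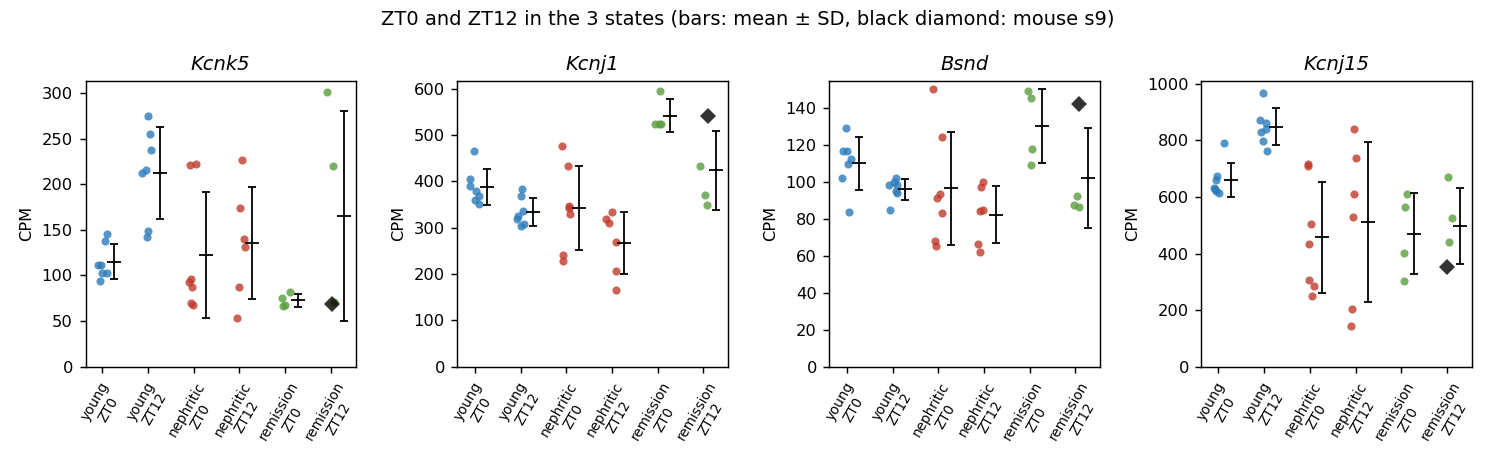
CPM (y axis, linear from 0) of Kcnk5, Kcnj1, Bsnd and Kcnj15 at ZT0 and ZT12 in each disease state (x axis); points are mice, bars mean ± SD, and the black diamond is s9. For Kcnj1 and Bsnd, s9 lies at 541 and 143 CPM with the ZT0 mice of its group, and in Kcnk5 the 2 highest remission mice are both of ZT12.

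The remission mice were compared with nephritic and with young mice of ZT0 and ZT12, to ask whether levels differ after treatment. Both comparisons share the 8 remission mice. Against nephritic mice, 3 members were higher and the other 4 were not called, where 16.8% of genes were called higher and 19% lower. Against young mice, 2 members were higher and 3 lower, where 26.2% of genes were called higher and 26.8% lower.

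Kcnj1 was the member with the largest rise in remission against both other groups. Across ZT0 and ZT12 its lowest, median and highest values were 349, 523 and 595 CPM in remission, 167, 318 and 477 CPM in nephritic and 303, 364 and 466 CPM in young mice. Of the 8 remission mice, 5 lay above every young and every nephritic mouse of these times. The log2 change was 0.69 against nephritic (SE 0.14, adjusted p = 0.00104) and 0.42 against young mice (SE 0.07, adjusted p = 2.48e-05). Kcnj10 was higher by 0.40 against nephritic (SE 0.13, adjusted p = 0.0209) and by 0.28 against young mice (SE 0.07, adjusted p = 0.00173), but the ranges overlapped, at 93.4 to 146 CPM in remission and 87.0 to 145 CPM in young mice. Bsnd was higher than in nephritic mice by 0.40 (SE 0.15, adjusted p = 0.0391), a call lost when any of 9 single mice was left out, and against young mice its change was 0.18 (SE 0.09, adjusted p = 0.0904). Bsnd in 3 of 8 remission mice lay above the highest young mouse.

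The proximal tubule channels Kcnj15 and Kcnk5 were not called between remission and nephritis, and were lower in remission than in young mice. Kcnj15 ranged from 304 to 670 CPM in remission mice (median 483), and 7 of 8 lay below the lowest young mouse of these times at 614 CPM. Its change was -0.62 against young (SE 0.11, adjusted p = 7.21e-05) and 0.02 against nephritic mice (95% interval -0.53 to 0.57, adjusted p = 0.957). Kcnk5 had a change of -0.50 against young mice (SE 0.20, adjusted p = 0.0428), and 6 of 8 remission mice lay below the lowest young mouse and 1 above the highest (301 against 275 CPM). The call was lost when any of 15 single mice was left out. Kcnj16 had a change of -0.28 against young mice (SE 0.07, adjusted p = 0.00159) and 0.05 against nephritic mice (95% interval -0.22 to 0.31, adjusted p = 0.817). Kcnma1 was called in neither comparison.

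These comparisons cross the series of titles. In the 3 mice other than RX11RU that were sequenced again, the repeat minus original difference averaged 0.18 on the log2 scale for Kcnj10, -0.15 for Kcnj16 and 0.03 for Kcnj1. With set 3 as a covariate estimated from the 4 repeats, Kcnj1 against nephritic mice was the one member called (0.72, adjusted p = 0.00404), and no member was called against young mice, with Kcnj1 at 0.44 (adjusted p = 0.0899) and Kcnj15 at -0.48 (adjusted p = 0.326). The 4 repeats included that of RX11RU, which lay nearest another mouse, RX11LU. In this fit originals and repeats entered as separate libraries, with no term for the mouse. Its p-values therefore treat libraries of the same mouse as independent. The share of all genes called in it is not given here. Markers of several cell types moved in the same comparisons. Of 6 thick ascending limb markers, 4 were higher in remission than in nephritic mice. The 6 summed to 8720 to 12100 CPM in remission, 1340 to 10300 CPM in nephritic and 5170 to 14200 CPM in young mice. Marker sums of young and nephritic mice cover all 6 time points, while the calls rest on ZT0 and ZT12. All 4 endothelial markers were higher in remission than in nephritic and than in young mice, with a summed level of 268 to 357 CPM in remission, 92.5 to 272 CPM in nephritic and 156 to 297 CPM in young mice. All 6 immune markers were higher in remission than in young mice. Of 4 tubular injury markers, 3 were lower in remission than in nephritic mice, but all 4 were higher than in young mice. Their changes against young mice were 3.20 (Lcn2), 1.56 (Krt20), 1.45 (Vcam1) and 0.64 (Havcr1). The distal convoluted tubule markers Slc12a3 (-0.42), Trpm6 (-1.19) and Calb1 (-0.74) were lower in remission than in young mice, and Pvalb was not called. Proximal tubule markers summed to 4840 to 7840 CPM in remission, and 5 of 6 were lower than in young mice. The part of these marker levels in the channel values was not tested.

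The spread among nephritic mice was set beside Lcn2, a gene switched on in injured tubule cells. Lcn2 ranged from 4.78 to 710 CPM over the 27 mice with no break into clusters, the widest gap being 0.81 of a 7.19 range on the log2 scale. Kcnj15 had the closest relation, with Pearson r = -0.77 (permutation p = 1e-05, the smallest that 100000 permutations can give) and Spearman rho = -0.80 (permutation p = 2e-05). Bsnd had r = -0.64 (permutation p = 0.00041) and rho = -0.68 (permutation p = 9e-05), and Kcnj1 r = -0.63 (permutation p = 0.00044) and rho = -0.61 (permutation p = 0.00092). Kcnk5 had r = -0.49 (permutation p = 0.00843) and rho = -0.45 (permutation p = 0.0207), and Kcnj16 r = -0.46 (permutation p = 0.00963) and rho = -0.51 (permutation p = 0.00696). Kcnma1 ran the other way, with r = 0.44 (permutation p = 0.0219) but rho = 0.37 (permutation p = 0.0601). Kcnj10 had r = -0.31 (permutation p = 0.113) and rho = -0.30 (permutation p = 0.134). In all, 7 relations were computed, and the p-values are two-sided and not adjusted. No relation to Lcn2 was computed for other genes, so how common such values are is not known here.

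Leaving out the 2 mice farthest from the median Lcn2 gave r = -0.74 for Kcnj15, -0.67 for Bsnd, -0.59 for Kcnj1, -0.43 for Kcnk5, -0.42 for Kcnj16, 0.44 for Kcnma1 and -0.27 for Kcnj10. Within set 2 alone, r was -0.78 for Kcnj15, -0.74 for Kcnj1, -0.65 for Bsnd and -0.48 for Kcnj10 (22 mice), and set 1 held 5 nephritic mice, too few for a value. In deviations from the mean of the time point, Kcnj15 had r = -0.78 and Kcnk5 r = -0.62. On linear CPM, r was -0.77 for Kcnj15 and -0.53 for Bsnd, but -0.35 for Kcnj1 (permutation p = 0.0783) and -0.35 for Kcnk5 (permutation p = 0.0656), and for Kcnj10 the sign turned (r = 0.08, permutation p = 0.676). With Havcr1, another injury gene, r was -0.75 for Kcnj15 and -0.71 for Bsnd.

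**Figure D4:**
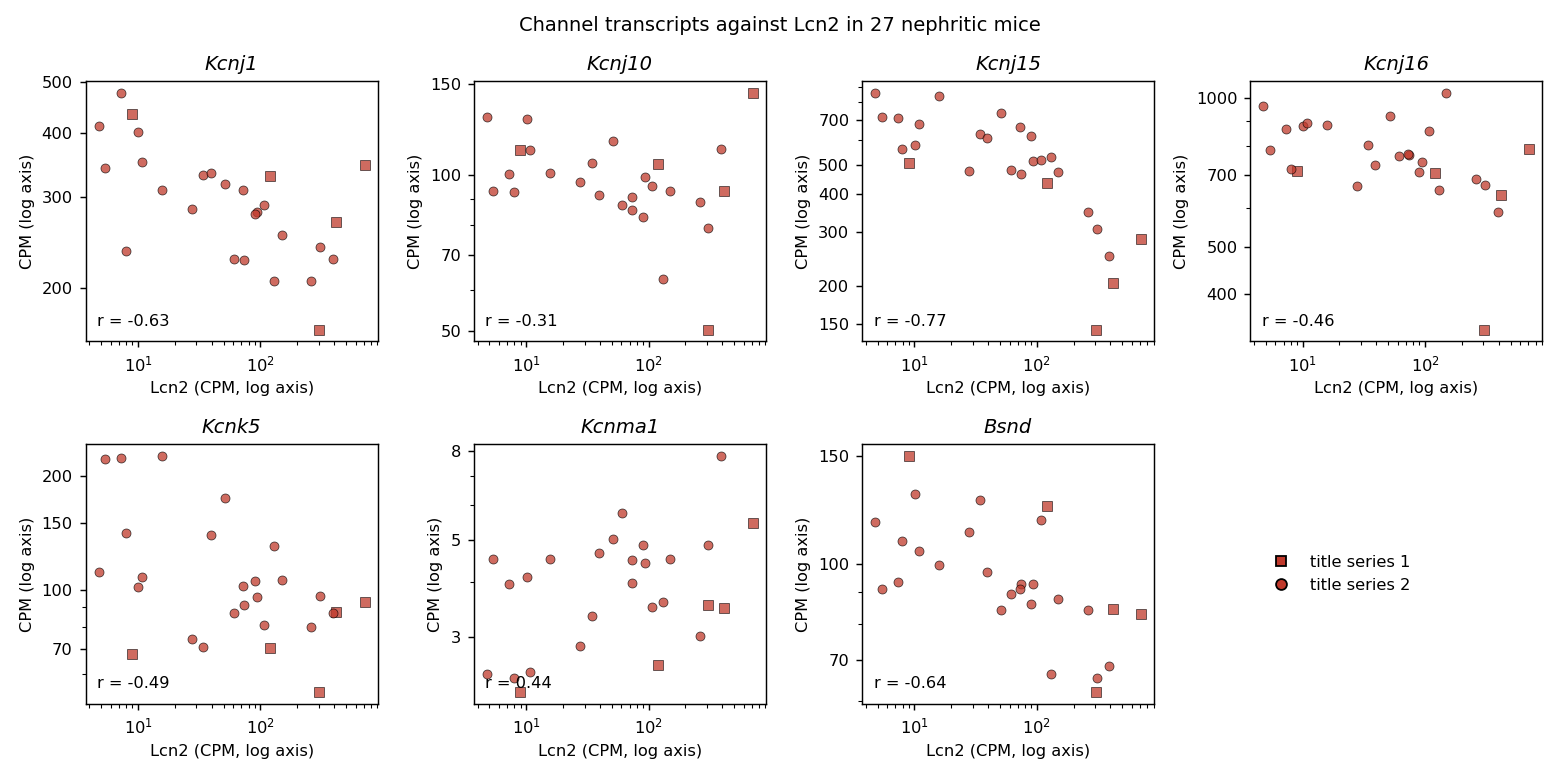
CPM of each channel gene (y axis, log scale) against CPM of Lcn2 (x axis, log scale) in 27 nephritic mice; squares are set 1 (title series 1), circles set 2 (title series 2), and r is Pearson's on log2 CPM. Kcnj15, which spans 144 to 860 CPM, has the closest relation with r = -0.77, while Kcnj10 has r = -0.31.

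The genes that followed each member most closely over the 57 young and nephritic mice were taken from 14175 genes, after removal of group, time point and set means, as a description. The mice share libraries and depth between the genes of a pair. For Kcnj15 these were Rdh16 (r = 0.96), Mcur1 (r = 0.95) and Mut (r = 0.95), the last a mitochondrial enzyme of propionate metabolism. Kcnj1 was followed most closely by Pkp4 (r = 0.92), Rtn3 (r = 0.91) and Scn4b (r = 0.89), and Bsnd by Hhatl, Rhcg and Metrn (r = 0.87, 0.87 and 0.86), Rhcg being an ammonia channel of the collecting duct. Kcnk5 was followed by Adra2b, Tob2 and Pim3 (r = 0.86 each) and Kcnj10 by Tmem52b, Ptgfr and Sall3 (r = 0.88, 0.85 and 0.835). For Kcnj16 the genes were Mfsd4b1, Zmpste24 and Nectin3 (r = 0.86, 0.86 and 0.85), and for the sparse Kcnma1 the values were lower, with Slc7a5 (r = 0.75), D430041D05Rik (r = 0.70) and Rab3d (r = 0.69). Among the members, r moved in either direction between young and nephritic mice. Kcnj15 and Bsnd had r = -0.07 in young and 0.80 in nephritic mice, and Kcnj1 and Bsnd 0.72 and 0.77. Kcnj15 and Kcnj10 had r = 0.70 in young and 0.27 in nephritic mice, and Kcnj15 and Kcnj16 0.85 and 0.60. The differences between the groups were not tested.

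Other channels were taken from lists, whose counts are read against the 28.1% of all genes called higher and 33.9% called lower. Of 32 other potassium channel genes, 29 were tested over the day, and 8 were higher and 8 lower in nephritic mice, with a median change of -0.08. The largest rises were in Kcnn4, the calcium-activated channel of immune cells (3.17, SE 0.20), Kcnk13 (2.01, SE 0.21) and Kcnk6 (1.24, SE 0.12). The largest falls were in Kcna1, a distal convoluted tubule channel that supports magnesium uptake (-1.74, SE 0.25), Kcnt1 (-1.03, SE 0.20) and Kcnmb2, an auxiliary subunit of BK channels (-0.75, SE 0.20). Of 25 other chloride channels and potassium chloride cotransporters, all tested, 8 were higher and 12 lower, with a median of -0.01. Clic1 (0.74, SE 0.10), Cftr (0.67, SE 0.12) and the calcium-activated chloride channel Ano1 (0.60, SE 0.13) rose most, and Lrrc8b of the volume-regulated anion channel (-0.73, SE 0.14), Clcn5, the endosomal exchanger of the proximal tubule (-0.51, SE 0.11), and Clcn2 (-0.47, SE 0.06) fell most. Of 21 regulators and partners of potassium handling, 12 were lower and the other 9 not called, with a median of -0.24. These included Kl, the co-receptor for FGF23 (-0.87, SE 0.12), Klhl3, the adaptor that marks WNK kinases for degradation (-0.59, SE 0.12), and the kinase Wnk1 (-0.41, SE 0.08).

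In remission against nephritic mice, where 16.8% of all genes were called higher and 19% lower, 9 of 28 other potassium channels tested were higher and 1 lower, with a median of 0.20, and 7 of 21 regulators were higher and 1 lower, with a median of 0.09.

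**Figure D5:**
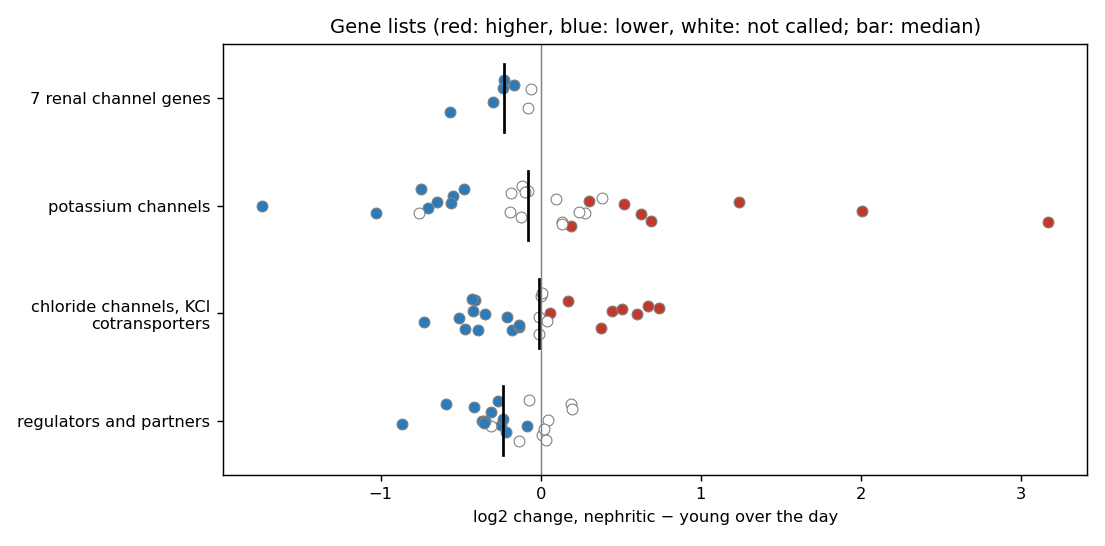
Log2 change over the day in nephritic against young mice (x axis) for the 7 genes and the 3 lists (y axis); each point is a gene, red called higher, blue called lower, white not called, and bars are medians. Medians are -0.23 for the 7 genes, -0.08 for other potassium channels, -0.01 for chloride channels and cotransporters and -0.24 for regulators.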

How the data were processed

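Kidney RNA of NZB/W F1 mice was sequenced as paired 150-base reads per the labels. The authors deposited raw read counts per gene symbol, one table for each of 69 libraries (65 mice and 4 repeats). The submitters' processing notes name HISAT and mm10, while the study's methods name a Burrows-Wheeler aligner and uniquely aligned reads. Strand use in counting and the gene annotation are not given in the sources used here. Of 24538 symbols, 15 had empty cells and were dropped.

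Groups came from the diagnosis and time labels, and repeats stayed out of the comparisons unless named. Counts were tested with edgeR 4.0.16 (R 4.3.3, quasi-likelihood, TMM factors) for genes with at least 100 counts over the libraries of a fit, with the set of titles as covariate where it could be fitted, and adjusted by the Benjamini-Hochberg method at 0.05. CPM used TMM factors over all 69 libraries and log2 CPM a prior count of 2. Nothing in the labels says how mice were housed or batched, so p-values measure the spread between these mice. The tests were checked on simulated data. Relations to Lcn2 used 100000 permutations, two-sided. Alternatives were limma 3.58.1 (voom), DESeq2 1.42.0, RLE factors, no filter, single sets, no covariate, cosine terms, repeats in place of originals and each mouse left out. Those without s9, RX11RU or adrenal libraries, with set 1 alone, with Havcr1 and with the number in nephritic titles as a block were chosen after seeing the data.

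The 7 genes and the lists were chosen with earlier results of these data known. Named are all 7, from each list at most 3 higher and 3 lower genes with the largest change over the day among those called, and the 3 genes most correlated with each member. Positions and exon lengths are from GENCODE vM21 (GRCm38) and promoters from RefSeq.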

Additional observations from a re-analysis of the deposited data

Results flagged for a closer look

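In groups of 4 to 10 mice, the highest or lowest mouse was set against the range of its group by Dixon's ratio. This is the ratio of the gap to the range, taken on log2 CPM, while the levels given below are linear CPM. Of 84 groups tested, 7 passed the critical value, and chance gives about 1 in 20. Kcnj1 in remission mouse s3 at ZT0 was 595 CPM against 523 to 524 CPM in the other 3 (ratio 0.989). Bsnd in remission mouse s9 at ZT12 was 143 CPM against 86.4 to 92.5 CPM (ratio 0.863), the mouse whose Arntl level went against its time label. Young mouse ZT00 at ZT0 stood above the other 6 for Kcnj15, at 790 against 614 to 673 CPM (ratio 0.636), and for Kcnj16, at 1050 against 792 to 870 CPM (ratio 0.667). Kcnj15 in young mouse ZT16RU, one of the libraries with adrenal genes, was 596 CPM against 793 to 841 CPM at ZT16 (ratio 0.83). Kcnj16 in nephritic mouse HIL5RU was 339 CPM against 636 to 919 CPM at ZT12 (ratio 0.63), and in nephritic mouse RX1OLL 1030 CPM against 741 to 767 CPM at ZT4 (ratio 0.894).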

How the results depend on the processing

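Of the counts of members called and the Lcn2 relation, 116 values under alternatives stayed within 1.5 times the reported one and 23 did not. Over the day 3 members were called without libraries with adrenal genes and 3 in set 1 alone, where Bsnd turned to 0.0019. At ZT4 1 was called with no filter and 4 in set 2 alone, where 57.3% of all calls were higher against 46% in the full fit. Set 2 alone gave 0 at ZT12, 2 at ZT16, 2 for group by time and 1 for ZT0 against ZT12 in young mice, and set 1 alone gave 1 for the group difference in that contrast. Without libraries with adrenal genes 0 were called at ZT0 and 2 for time points in young mice. Time points in nephritic mice gave 0 under limma voom, no filter, no covariate, cosine terms and without RX11RU. The bridge of repeats gave 1 for remission against nephritic and 0 against young mice, with or without RX11RU, remission without s9 gave 1 for ZT0 against ZT12, and linear CPM left 2 relations with Lcn2 in place of 6, both counted after adjustment over the 7 relations. The causes were not tested. The share of all genes called under each setting is not given here, so a moved count is not read as a result about the members. With each mouse left out in turn, counts were 3 to 5 over the day, 1 at ZT0, 1 to 3 at ZT4, 0 at ZT8, 4 at ZT12, 0 to 1 at ZT16, 0 at ZT20, 4 to 6 for time points in young and 0 to 1 in nephritic mice, 2 to 3 for ZT0 against ZT12 in young, 0 in nephritic and 0 to 1 in remission mice, 0 for group by time and for the group difference, 2 to 3 for remission against nephritic and 4 to 6 against young mice. The labels give no replicate numbers, but titles of nephritic mice hold a number that spans time points, whose meaning they do not state. With this number as a replicate block, chosen after seeing the data, 0 members were called for time points in nephritic mice (322 genes in all) and 0 for ZT0 against ZT12. Mice of different time points with the same number did not deviate together (median r -0.01 over 30 pairs, 7 of them over 0.1, against 0.01 over 171 pairs with different numbers).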
